A study of Mus musculus with 23 samples.

Results

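The latrophilins (Adgrl1, Adgrl2, Adgrl3), teneurins (Tenm1, Tenm2, Tenm3, Tenm4) and FLRT proteins (Flrt1, Flrt2, Flrt3) are 3 families of cell-surface proteins that meet across the synaptic cleft. The members described here are these 10 genes, taken by symbol from a table of 45706 gene identifiers, and all 10 passed the filter on low counts that left 18823 genes. They were measured by sequencing of polyadenylated RNA from the mouse hippocampus in 3 neuronal populations, each from wild-type (WT) animals and from animals with a conditional knockout (cKO) of Slm2, a splicing regulator encoded by Khdrbs3. The populations labelled CamK and Grik are excitatory pyramidal cells, and the population labelled SST consists of somatostatin-positive interneurons. There were 4 CamK WT, 3 CamK cKO, 4 Grik WT, 4 Grik cKO, 4 SST WT and 4 SST cKO libraries. The driver lines, strain, age, sex, way of isolating the cells and the exons removed are not given in the labels, nor whether each library was 1 animal or a pool, so p-values measure the spread between libraries.

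Latrophilins are adhesion G-protein-coupled receptors with a long extracellular part that binds teneurins and FLRTs on the partner cell. Teneurins are large single-pass transmembrane proteins that bind latrophilins and also each other, and FLRTs are leucine-rich repeat proteins that bind latrophilins, UNC5 receptors and fibroblast growth factor receptors. In the hippocampus, latrophilin-2 and latrophilin-3 are known for serving different synapses on the same CA1 pyramidal neuron, and Tenm3 for matching CA1 axons to their target field.

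Gene totals ranged from 87612006 to 112993538 reads per library, so even the lowest level of a member, Adgrl2 in Grik, rests on 171 to 286 reads per library. Levels are given as counts per 1e+06 gene reads (CPM) after TMM scaling. Glutamatergic and GABAergic markers followed the labels. The 3 glutamatergic markers summed to 5207 to 5689 CPM for CamK WT, 6567 to 7603 for Grik WT and 745 to 878 for SST WT, and the 3 GABAergic markers to 41.2 to 135, 60.3 to 81.6 and 4720 to 5327 CPM. Wfs1, a CA1 marker, stood at 356 ± 54.7 CPM for CamK WT and 24.7 ± 4.45 for Grik WT (SD, n = 4 each), and Grik4, a CA3 marker, at 30.3 ± 4.11 and 132 ± 10.7 (SD, n = 4 each). Markers of dentate granule cells were present in both pyramidal populations, with sums of 97.9 to 259 CPM for CamK WT and 140 to 150 for Grik WT. The CA2 markers split: by their means Rgs14 and Pcp4 were higher in CamK WT (200 and 9.17 CPM) than in Grik WT (86.0 and 6.49), and Amigo2 lower (4.17 against 34.1). Of markers of other interneurons, Pvalb stood at 140 CPM for SST WT. Vip was higher in Grik WT (10.5 CPM) than in SST WT (0.610), and Cck higher in CamK WT (365) than in SST WT (15.3). Sst itself varied among the SST WT libraries, from 159 CPM in replicate 2 and 554 in replicate 3 to 1557 in replicate 5 and 1720 in replicate 1. Replicate 2 had the highest Npy (769 CPM against 520 to 630) and Gad1 (3087 against 2546 to 2837) of these 4 libraries. It also had the highest Slc17a7, a glutamatergic marker (121 CPM against 67.7 to 72.9), and Mbp, an oligodendrocyte marker (349 against 117 to 287). Its Camk2a lay within the range of the others (715 against 656 to 792). Khdrbs3, the gene named in the knockout, stood at 249 to 294 CPM in the CamK libraries labelled cKO against 356 to 413 in CamK WT, at 82.6 to 106 against 123 to 140 for SST, and at 396 to 439 against 327 to 347 for Grik. The Grik order of the Khdrbs3 total goes against the label, so cKO refers to the label alone throughout. Its relatives Khdrbs2 and Khdrbs1 were the 2 genes called between the libraries labelled cKO and WT in Grik, and likewise in CamK. In Grik Khdrbs2 stood at 19.8 to 22.3 CPM in the libraries labelled cKO against 3.88 to 5.24 (log2 ratio 2.17, SE 0.13, adjusted p by edgeR 1.11e-10) and Khdrbs1 was 1.47-fold higher (0.56, SE 0.09, adjusted p by edgeR 0.00914), and in CamK the log2 ratios were 1.52 (adjusted p by edgeR 3.02e-07) and 0.59 (adjusted p by edgeR 0.0111). In SST neither relative was called (0.58, adjusted p by edgeR 0.3, and 0.10, adjusted p by edgeR 0.874), and Khdrbs3 was called lower (-0.47, SE 0.08, adjusted p by edgeR 0.0309).

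Which of the 10 genes differ between the populations was asked first in WT, by edgeR's quasi-likelihood test with Benjamini-Hochberg adjustment over all 18823 genes. Between CamK and Grik, 7 of the 10 passed an adjusted p of 0.05, against 42% of all genes. Of these, 5 were higher in CamK (Adgrl2, Adgrl3, Tenm3, Flrt1 and Flrt2; 20.9% of all genes were called higher) and 2 were lower (Tenm4 and Flrt3; 21.1% were called lower). Between Grik and SST, 8 members passed, against 57.3% of all genes, with 2 higher in Grik (Adgrl1 and Flrt3; background 28.1%) and 6 lower (Adgrl2, Adgrl3, Tenm1, Tenm3, Flrt1 and Flrt2; background 29.2%). Between CamK and SST, 5 members passed, against 60.1% of all genes, with Adgrl1 and Flrt3 higher in CamK (background 29.5%) and Tenm1, Tenm4 and Flrt2 lower (background 30.5%). Tenm2 passed in none of the 3.

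The groups of libraries did not overlap for 7 members between CamK and Grik (38.3% of all genes), for 8 between Grik and SST (52.3%) and for 3 between CamK and SST (53.9%). The median absolute log2 ratio (fold change on the log2 scale) of the 10 members was 0.67 for CamK against Grik, 1.19 for Grik against SST and 0.35 for CamK against SST, where that of all genes was 0.34, 0.51 and 0.54. Fewer expressing cells and less RNA per cell cannot be told apart in such bulk libraries. Non-neuronal markers also differed between these groups. Of 22 such markers, 16 were called lower in CamK than in Grik and 20 lower in CamK than in SST, and between Grik and SST 4 were called higher in Grik and 6 lower. The 5 oligodendrocyte markers summed to 144 to 219 CPM for CamK WT, 684 to 924 for Grik WT and 296 to 672 for SST WT. All 22 markers had a value below 0 for CamK against Grik and for CamK against SST. A covariate built from them therefore cannot be fully told apart from population in those 2 contrasts. The part of non-neuronal RNA in the members' differences was not tested. With a score of these markers as a covariate, 6 members were called between CamK and Grik (21.4% of all genes in that fit), 8 between Grik and SST (57.2%) and 3 between CamK and SST (37.9%).

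**Figure D1:**
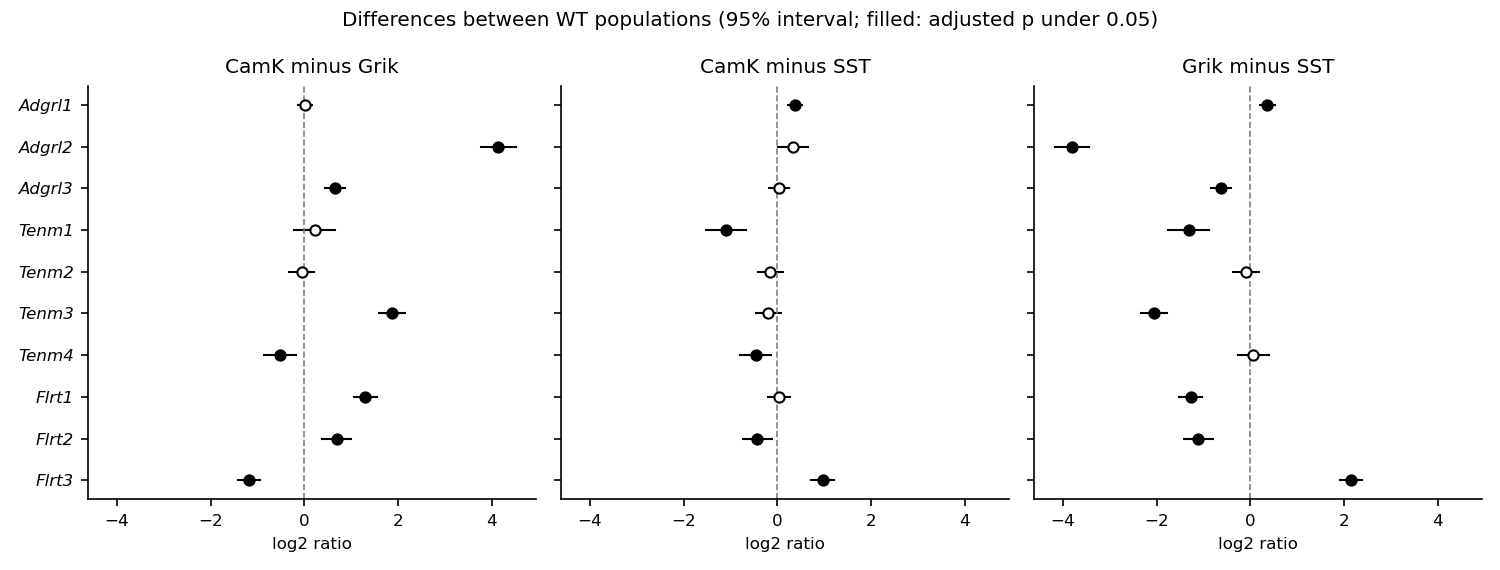
Log2 ratio (horizontal axis) of each of the 10 genes between WT populations, 1 panel per pair; points are edgeR estimates, lines 95% intervals, and filled points have an adjusted p under 0.05. Adgrl2 lies farthest from 0 in both panels with Grik, at 4.14 and -3.81, and Flrt3 lies on the other side of 0 from Adgrl2 in those panels.

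The 3 members with the widest differences between WT populations were Adgrl2, Tenm3 and Flrt3, of which Adgrl2 and Tenm3 were lowest in Grik and Flrt3 highest there; they were chosen for display after these values were seen. Their RefSeq promoter windows (GRCm38.p6, 250 bases before to 50 after a transcript start, 300 bases, read on the gene's strand) are shown as a description of sequence. Any link between these windows and the levels was not tested. RefSeq windows were matched for 9 of the 10 members, all but Flrt1. The Adgrl2 window is at chr3:148954586-148954885 and the Tenm3 window at chr8:48674641-48674940, both inside the span of their gene in GENCODE M21, and the Flrt3 window at chr2:140671427-140671726 spans the annotated start of the gene. All 3 genes lie on the minus strand. Capitals mark matches on either strand to any of 5 motifs: the GC box (GGGCGG), the cyclic AMP response element (TGACGTCA), the TATA box (TATAAA), the CCAAT box (CCAAT) and the E-box (CANNTG).
Adgrl2: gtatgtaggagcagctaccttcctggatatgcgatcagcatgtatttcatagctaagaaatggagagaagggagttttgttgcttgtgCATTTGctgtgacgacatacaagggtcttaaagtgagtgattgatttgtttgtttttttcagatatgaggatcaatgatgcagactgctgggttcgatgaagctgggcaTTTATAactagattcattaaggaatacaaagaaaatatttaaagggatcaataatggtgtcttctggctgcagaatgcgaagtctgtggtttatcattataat
Tenm3: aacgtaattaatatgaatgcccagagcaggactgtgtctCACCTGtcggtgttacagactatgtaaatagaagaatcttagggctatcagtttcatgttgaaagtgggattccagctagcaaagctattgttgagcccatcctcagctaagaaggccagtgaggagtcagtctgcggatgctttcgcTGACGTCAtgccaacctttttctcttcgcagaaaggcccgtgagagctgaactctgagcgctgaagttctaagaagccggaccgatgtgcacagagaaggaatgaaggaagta
Flrt3: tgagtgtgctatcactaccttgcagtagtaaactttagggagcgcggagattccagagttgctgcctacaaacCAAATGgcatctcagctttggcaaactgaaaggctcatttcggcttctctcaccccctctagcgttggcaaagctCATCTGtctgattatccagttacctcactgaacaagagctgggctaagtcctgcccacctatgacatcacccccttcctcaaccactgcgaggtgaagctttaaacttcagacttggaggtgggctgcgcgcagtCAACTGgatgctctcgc

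Among all 32851 windows of that length, 35.7% held a GC box, 1.79% the cyclic AMP response element, 13.6% a TATA box, 37.4% a CCAAT box and 72.3% an E-box. The Tenm3 window held 1 cyclic AMP response element and 1 E-box, the Adgrl2 window 1 TATA box and 1 E-box, and the Flrt3 window 3 E-boxes, with no overlap between motifs in any of them. The C and G content was 38% for Adgrl2, 47.3% for Tenm3 and 51.3% for Flrt3, with 4, 10 and 8 CpG pairs, where the median window had 52.7% and 7. These are matches of letters, and no data on binding or use of these windows were analysed here.

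Adgrl1, the gene of latrophilin-1, was the most abundant member per exonic length in every WT population (gene ENSMUSG00000013033, chromosome 8, 83900105 to 83941954, plus strand, GRCm38). In WT its level was 333, 376, 369 and 361 CPM for CamK, 326, 365, 421 and 319 for Grik and 271, 303, 278 and 260 for SST. The pyramidal populations overlapped throughout, and every SST library lay below every CamK and Grik library. The log2 ratio was 0.01 (SE 0.07, adjusted p by edgeR 0.948) for CamK against Grik, 0.37 (SE 0.07, adjusted p by edgeR 0.000107) for CamK against SST and 0.36 (SE 0.07, adjusted p by edgeR 0.000144) for Grik against SST. The interval of the CamK and Grik difference ran from -0.15 to 0.16. Other annotated genes, of which Gm10644 is the longest overlap, share 15.6% of its exonic bases, and without the strand setting their reads cannot be told apart.

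Adgrl2, the gene of latrophilin-2, showed the largest differences of the 10 in the contrasts with Grik (ENSMUSG00000028184, chromosome 3, 148815583 to 148990555, minus strand). Its WT levels were 44.2, 47.7, 54.6 and 43.5 CPM for CamK, 2.37, 2.71, 2.59 and 3.09 for Grik and 30.1, 34.7, 35.9 and 50.1 for SST. The 4 Grik libraries lay below all others, while the CamK and SST libraries overlapped through 1 SST library. Adgrl2 was 17.7-fold higher in CamK than in Grik (log2 ratio 4.14, SE 0.18, adjusted p by edgeR 1.77e-14) and 14.01-fold lower in Grik than in SST (log2 ratio -3.81, SE 0.17, adjusted p by edgeR 5.32e-15). Between CamK and SST the log2 ratio was 0.33 (SE 0.15) with an adjusted p by edgeR of 0.0597, and without SST WT replicate 5 it was 0.50 with an adjusted p of 0.0041. The Grik level was 5.66% of that in CamK, where the 3 CA1 markers Wfs1, Fibcd1 and Pou3f1 stood at 6.93, 10.4 and 2.61%. How much of the Grik signal came from other cells was not tested.

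Adgrl3, the gene of latrophilin-3, followed the same order at a smaller distance (ENSMUSG00000037605, chromosome 5, 81020138 to 81825133, plus strand). Its WT levels were 65.9 to 76.1 CPM for CamK, 43.0 to 48.5 for Grik and 55.4 to 78.4 for SST. The Grik libraries again lay below all others and the CamK and SST libraries overlapped. The log2 ratio was 0.65 (SE 0.10, adjusted p by edgeR 1.14e-05) for CamK against Grik and -0.63 (SE 0.10, adjusted p by edgeR 9.54e-06) for Grik against SST. For CamK against SST it was 0.03 with an interval from -0.19 to 0.24. An antisense transcript, Gm16054, shares 8.91% of its exonic bases.

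The teneurins fell into different patterns: Tenm3 was low in Grik, Tenm1 high in SST and Tenm4 low in CamK, and Tenm2 was called between no pair. Tenm3 (ENSMUSG00000031561, chromosome 8, 48227682 to 48843951, minus strand) stood at 77.2, 81.5, 85.8 and 77.0 CPM for CamK WT, at 20.1, 24.2, 22.8 and 21.4 for Grik WT, and at 75.1, 106, 96.6 and 90.2 for SST WT. Its Grik libraries lay well apart from the rest, as for Adgrl2. Tenm3 was 3.63-fold higher in CamK than in Grik (log2 ratio 1.86, SE 0.13, adjusted p by edgeR 5.34e-11) and 4.16-fold lower in Grik than in SST (log2 ratio -2.06, SE 0.13, adjusted p by edgeR 2.02e-12). For CamK against SST the value was -0.19 with an interval from -0.46 to 0.07 (adjusted p by edgeR 0.192).

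Tenm1 (ENSMUSG00000016150, chromosome X, 42527866 to 43429126, minus strand), an X-linked teneurin, was highest in SST. Its WT levels were 18.3, 22.7, 11.4 and 10.8 CPM for CamK, 14.1, 15.0, 14.9 and 10.3 for Grik and 22.6, 39.8, 40.7 and 32.2 for SST. The lowest SST library just overlapped the highest CamK library, and the CamK libraries themselves spread over more than the Grik ones. Grik against SST gave a log2 ratio of -1.32 (SE 0.21, adjusted p by edgeR 1.11e-05) and CamK against SST gave -1.10 (SE 0.20, adjusted p by edgeR 8.74e-05). With the non-neuronal score as a covariate the CamK against SST value was -0.54 with a wider SE of 0.36 (adjusted p by edgeR 0.271). The CamK and Grik levels did not differ beyond their spread (0.22, interval -0.21 to 0.65). That value ranged from -0.0099 to 0.6762 over the alternatives and was called in none. Of the exonic bases of Tenm1, 8.25% are shared with Sh2d1a on the other strand.

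Tenm4 (ENSMUSG00000048078, chromosome 7, 96171246 to 96911093, plus strand) was lowest in CamK. Levels in WT ran from 72.7 to 92.9 CPM for CamK, from 96.4 to 136 for Grik and from 91.4 to 152 for SST. Every Grik library lay above every CamK library, and 1 SST library reached down into the CamK range. The log2 ratio was -0.52 (SE 0.16, adjusted p by edgeR 0.0106) for CamK against Grik and -0.46 (SE 0.16, adjusted p by edgeR 0.0154) for CamK against SST. Neither call held with the non-neuronal score as a covariate, where the SEs were also wider. The values were -0.31 (SE 0.27, adjusted p by edgeR 0.453) and -0.21 (SE 0.30, adjusted p by edgeR 0.637). The SST call was also lost without CamK WT replicate 5, where the value was -0.40 (adjusted p 0.0532), and without SST WT replicate 2, where it was -0.30 (adjusted p 0.103). Grik and SST gave 0.06 with an interval from -0.27 to 0.39.

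Tenm2 (ENSMUSG00000049336, chromosome 11, 36006656 to 37235964, minus strand) was the even member of the family, at 84.3 ± 7.51 CPM for CamK, 87.8 ± 11.2 for Grik and 93.5 ± 13.4 for SST (SD, n = 4 each). The 3 groups overlapped. Its log2 ratios were -0.06, -0.15 and -0.09 for CamK against Grik, CamK against SST and Grik against SST, with intervals from -0.33 to 0.21, -0.42 to 0.12 and -0.36 to 0.18.

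Flrt3 (ENSMUSG00000051379, chromosome 2, 140650914 to 140671469, minus strand), which lies within Macrod2 on the other strand, was the 1 member called higher in Grik than in both CamK and SST. Its WT levels were 24.7, 24.9, 17.9 and 23.01 CPM for CamK, 50.4, 46.0, 55.6 and 53.9 for Grik and 9.46, 13.3, 10.4 and 13.2 for SST. The 3 groups formed separate steps with no overlap between any of them. Flrt3 was 2.27-fold lower in CamK than in Grik (log2 ratio -1.19, SE 0.11, adjusted p by edgeR 4.92e-09), 4.44-fold higher in Grik than in SST (2.15, SE 0.12, adjusted p by edgeR 3.18e-14) and 1.95-fold higher in CamK than in SST (0.97, SE 0.11, adjusted p by edgeR 5.74e-08). The first value ranged from -1.24 to -0.78 over the alternatives and the last from 0.88 to 1.45, called in each. Flrt3 was the only member called between all 3 pairs apart from Flrt2, whose order was the reverse.

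Flrt2 (ENSMUSG00000047414, chromosome 12, 95692226 to 95785215, plus strand) stood at 40.0, 45.9, 49.2 and 37.9 CPM for CamK WT, at 31.4, 28.0, 25.1 and 23.2 for Grik WT, and at 51.2, 63.9, 55.9 and 61.3 for SST WT. Here too the groups did not overlap, with SST at the top and Grik at the bottom. CamK against Grik gave a log2 ratio of 0.69 (SE 0.15, adjusted p by edgeR 0.000644), Grik against SST gave -1.11 (SE 0.15, adjusted p by edgeR 8.69e-07) and CamK against SST gave -0.42 (SE 0.15, adjusted p by edgeR 0.0163). The last value lost its call but changed little without CamK WT replicate 2 (-0.38, adjusted p 0.0516), CamK WT replicate 5 (-0.36, adjusted p 0.0569) or SST WT replicate 2 (-0.37, adjusted p 0.0544), and with the non-neuronal covariate (-0.35, SE 0.29, adjusted p 0.381).

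Flrt1 (ENSMUSG00000047787, chromosome 19, 7092001 to 7105729, minus strand), which lies within Macrod1 on the other strand, was low in Grik like Adgrl2 and Tenm3. Its WT levels were 14.8, 17.8, 16.6 and 15.0 CPM for CamK, 5.40, 6.93, 7.86 and 5.93 for Grik and 15.5, 16.8, 15.2 and 15.4 for SST. The Grik libraries lay below all others. Flrt1 was 2.46-fold higher in CamK than in Grik (log2 ratio 1.30, SE 0.12, adjusted p by edgeR 1.96e-09) and 2.41-fold lower in Grik than in SST (-1.27, SE 0.12, adjusted p by edgeR 8.13e-10). CamK against SST gave 0.03 with an interval from -0.21 to 0.27.

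**Figure D2:**
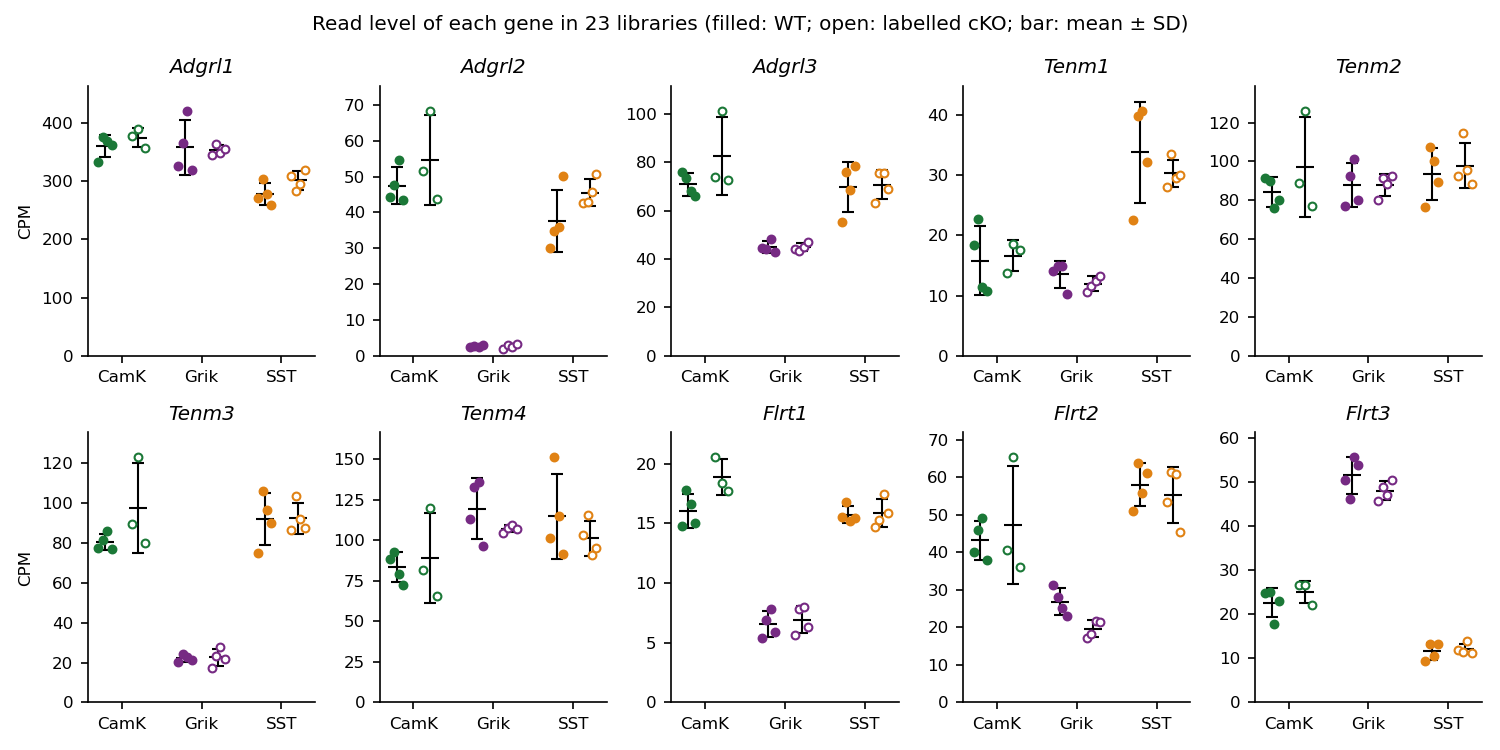
Level in CPM (vertical axis, from 0, own scale per gene) of the 10 genes in each of the 23 libraries, by population; filled points are WT, open points are labelled cKO, and bars show the mean ± SD of 3 libraries for CamK cKO and 4 for every other group. The WT Grik points of Adgrl2 sit between 2.37 and 3.09 CPM, below all CamK and SST points, while those of Flrt3 sit between 46.0 and 55.6 CPM, above all others in WT.

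Levels of different genes were compared per 1000 exonic bases (RPKM), as a description with no test. Summed over each family in WT, the latrophilins reached 49.2 ± 2.25 RPKM for CamK, 44.4 ± 5.55 for Grik and 38.9 ± 2.24 for SST (SD, n = 4 each). The teneurins summed to 20.1 ± 1.32, 16.3 ± 2.03 and 24.5 ± 3.92, and the FLRTs to 13.0 ± 0.804, 15.2 ± 0.720 and 12.6 ± 1.21 (SD, n = 4 each). By their means the teneurin sum was lowest in Grik and the FLRT sum highest in Grik, also with the length of the longest annotated transcript. The latrophilin sum was highest in CamK by either length, but with the longest transcript those of Grik and SST were close, at 50.8 ± 6.01 and 50.4 ± 3.27 (SD, n = 4 each).

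Within the sums, Adgrl1 held 85.1 ± 0.906% of the latrophilin level in CamK, 93.8 ± 0.510% for Grik and 83.1 ± 2.78% for SST, while Adgrl2 held 6.79 ± 0.571%, 0.433 ± 0.0828% and 6.84 ± 1.64% (SD, n = 4 each). Tenm3 and Tenm2 were the leading teneurins in CamK (39.3 ± 3.17% and 36.6 ± 1.86%) and in SST (36.8 ± 1.35% and 33.3 ± 0.928%). In Grik, Tenm2 led with 47.0 ± 1.79%, followed by Tenm4 with 34.9 ± 1.83%, and Tenm3 held 13.4 ± 1.06%. Among FLRTs, Flrt2 led in SST with 59.8 ± 0.572%, Flrt3 led in Grik with 69.7 ± 3.30%, and in CamK Flrt2 held 43.1 ± 4.35% and Flrt3 35.8 ± 5.10%, with ranges of 40.2 to 49.5% and 28.5 to 39.7%.

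Which transcript a length is taken from moves these shares. With the longest annotated transcript in place of all exons, Adgrl1 held 70.6% of the latrophilin level in CamK, 86.0% for Grik and 67.4% for SST, and Adgrl2 held 12.6, 0.886 and 12.3%. The order of the latrophilins in Grik was the same by either length. Tenm4 then held 42.2% of the Grik teneurin level beside 41.3% for Tenm2, so that the lead of Tenm2 there depends on the length used, while Flrt3 (72.5% for Grik) and Flrt2 (59.4% for SST) still led.

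**Figure D3:**
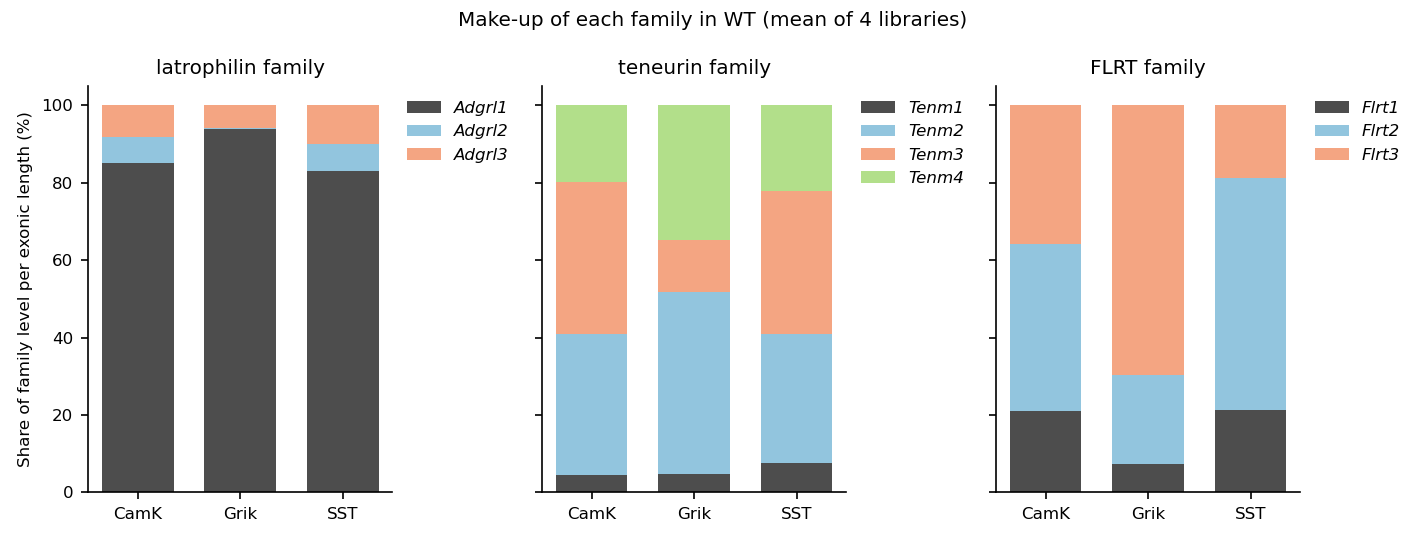
Share (vertical axis, %) of each gene in the summed level per exonic length of its family in WT, as means of 4 libraries per population, 1 panel per family. Flrt3 takes 69.7% of the FLRT bar in Grik but 18.8% for SST, and Adgrl2 takes 0.433% of the latrophilin bar in Grik.

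Over the 23 libraries, which share populations, genotypes and preparation, the profiles of Adgrl2, Tenm3 and Flrt1 ran alike. Pearson's r of log2 CPM was 0.98 between Adgrl2 and Tenm3, 0.97 between Adgrl2 and Flrt1 and 0.97 between Tenm3 and Flrt1. Flrt3 ran the opposite way, with r of -0.83 to Adgrl2 and -0.86 to Tenm3. As the libraries fall into 3 populations, these values are a description only.

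Genes of like profile were sought among 12188 genes with a mean of at least 1 CPM and an assigned symbol, leaving out names with a Gm number or Rik. Among these, the profile most like Adgrl2 was that of Spon1, the gene of an extracellular matrix protein (r 0.99, with 82.3 CPM for CamK WT, 16.2 for Grik WT and 69.8 for SST WT). Of the 2 genes most like Tenm3, Hs6st2, the gene of a heparan sulfate sulfotransferase, had r 0.99 (28.75, 3.25 and 37.5 CPM), and the gene most like Flrt3 was Grm7, a presynaptic metabotropic glutamate receptor (r 0.99; 37.3, 61.4 and 26.9 CPM). Tenm3 was itself the second most like gene to Adgrl3 (r 0.94), the only member to appear in the pair of nearest genes of another. Tenm2 had the weakest likeness, with r of 0.73 to its nearest gene, Dync1h1. For the remaining members the nearest genes were Ncan for Adgrl1 (r 0.92), Arhgap26 for Adgrl3 (0.95), Mpp7 for Tenm1 (0.95), Tnr for Tenm4 (0.88), Osbpl10 for Flrt1 (0.99) and Ripor2 for Flrt2 (0.96), over the same 23 libraries.

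Partners of the 3 families were then read from a list of 23 genes: FLRT partners, latrophilin ligands, latrophilin scaffolds, G proteins and their exchange factors, and 2 others. In WT, 13 of the 23 were called between CamK and Grik (42% of all genes), 2 higher and 11 lower in CamK (20.9% and 21.1%). Between CamK and SST 21 were called (60.1%), 7 higher and 14 lower (29.5% and 30.5%), and between Grik and SST 18 (57.3%), of which 11 were higher and 7 lower in Grik (28.1% and 29.2%). All FLRT partners called between CamK and Grik, 6 of 8, were lower in CamK, where 21.1% of all genes were called lower, as were 16 of the 22 non-neuronal markers. With the non-neuronal score as a covariate, a setting chosen after seeing the data, 4 FLRT partners were called, all lower in CamK, and of the 23 partners 9 were called between CamK and Grik (21.4% of all genes), 15 between CamK and SST (37.9%) and 18 between Grik and SST (57.2%). None of the 23 was called between libraries labelled cKO and WT in any population by edgeR, where 4, 0 and 0 had an unadjusted p under 0.05 in CamK, Grik and SST, against 7.05, 4.88 and 5.85% of all genes.

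Of 9 partners called in all 3 pairs, 5 of the 6 with the widest differences are described. Fgfr1, a fibroblast growth factor receptor that binds FLRTs, stood at 61.5 CPM for CamK WT, 153 for Grik WT and 27.8 for SST WT, the same order as Flrt3. Robo1, an axon guidance receptor, stood at 32.5, 109 and 53.1 CPM, and Unc5b, a netrin receptor of the family that binds FLRTs, at 2.71, 9.17 and 4.53 CPM. Both were highest in Grik, with log2 ratios of -1.74 (SE 0.09, adjusted p by edgeR 7.53e-14) and -1.76 (SE 0.26, adjusted p by edgeR 7.52e-06) for CamK against Grik. With the non-neuronal covariate the Robo1 value was -1.60 (SE 0.14, adjusted p by edgeR 1.56e-08). That of Unc5b was -0.50 and was no longer called (SE 0.28, adjusted p by edgeR 0.227).

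The postsynaptic scaffold Shank2 had 220 CPM for CamK, 192 for Grik and 92.8 for SST, and its difference between the pyramidal populations was small (0.19, SE 0.08, adjusted p by edgeR 0.0426) and was not called with the covariate (0.23, SE 0.13, adjusted p 0.229). Adgrl4, the endothelial relative of the latrophilins, was near 0 in all, at 0.0688, 0.207 and 1.87 CPM. The 5 endothelial markers summed to 0.971 to 2.06 CPM for CamK WT, 3.20 to 4.58 for Grik WT and 8.03 to 30.4 for SST WT. With the non-neuronal covariate, which includes them, the log2 ratio of Adgrl4 for CamK against Grik went from -1.57 to -0.26 (SE 0.66, adjusted p by edgeR 0.833).

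**Figure D4:**
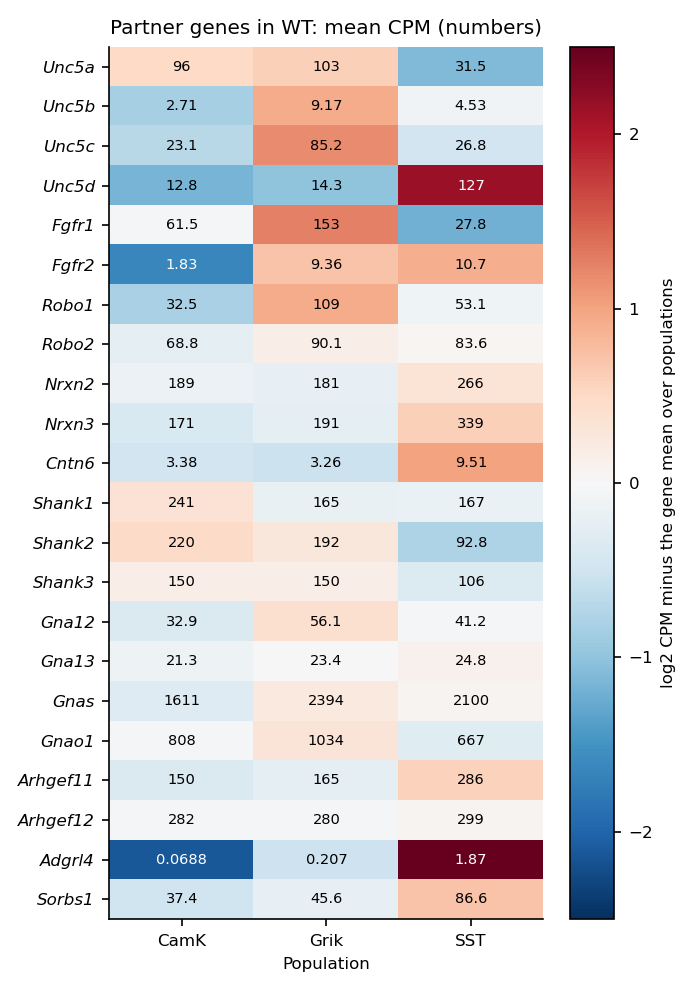
Mean level in WT (numbers, CPM, n = 4 per population) of 22 of the 23 partner genes, coloured by log2 CPM minus the mean of that gene over the 3 populations. Fgfr1, Robo1 and Unc5b have their highest level in Grik, and Adgrl4 is at or below 1.87 CPM in every population.

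The libraries labelled cKO share no sample with WT, and the contrasts between populations were repeated in them. Between CamK and Grik, 6 members were called against 35.7% of all genes, between CamK and SST 3 against 56.4%, and between Grik and SST 8 against 57.9%. Of the 22 non-neuronal markers, 14 were called lower in CamK than in Grik here, and 20 lower in CamK than in SST. Between Grik and SST, 2 of these markers were called higher in Grik and 6 lower. For CamK against Grik the log2 ratios were 4.30 for Adgrl2 (SE 0.18, adjusted p by edgeR 2.13e-14), 2.11 for Tenm3 (SE 0.14, adjusted p by edgeR 2.07e-11), 1.44 for Flrt1 (SE 0.12, adjusted p by edgeR 9.42e-10), 1.27 for Flrt2 (SE 0.16, adjusted p by edgeR 8.9e-07) and -0.94 for Flrt3 (SE 0.12, adjusted p by edgeR 9.92e-07). Adgrl3 was the other member called (0.88, SE 0.11, adjusted p by edgeR 5.09e-07). All 6 had the direction they had in WT. For CamK against SST the members called were Adgrl1 (0.31, SE 0.08, adjusted p by edgeR 0.00152) and Flrt3 (1.05, SE 0.12, adjusted p by edgeR 5.14e-08), both higher in CamK, and Tenm1 (-0.86, SE 0.22, adjusted p by edgeR 0.00236), and without CamK cKO replicate 5 the count was 5, against 51.4% of all genes. For Grik against SST, Adgrl1 and Flrt3 were called higher in Grik and Adgrl2, Adgrl3, Tenm1, Tenm3, Flrt1 and Flrt2 lower. Tenm4, called between CamK and Grik in WT, was not called between them here (-0.26, SE 0.17, adjusted p by edgeR 0.251), and whether its difference changed with the label was tested as the genotype difference below.

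Libraries labelled cKO were compared with WT within each population to ask whether the levels of these genes differ with that label, which the Khdrbs3 total does not follow in Grik. No member was called in CamK, Grik or SST by edgeR, nor in any alternative including DESeq2 and limma-voom. Of all genes, 0.0106% were called in each of the 3 populations, which is 2 genes each. Over the alternatives the number of genes called ran from 1 to 14 for CamK, from 1 to 39 for Grik and from 0 to 11 for SST. At an unadjusted p under 0.05 the edgeR test gave 0 members in CamK (7.05% of all genes), 1 for Grik (4.88%) and 0 for SST (5.85%). Groups without overlap were found for 0 members in CamK (6.75% of all genes), 1 for Grik (4.59%) and 0 for SST (2.7%).

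That member was Flrt2 in Grik. Its level was 17.1, 18.3, 21.7 and 21.5 CPM in the libraries labelled cKO and 31.4, 28.0, 25.1 and 23.2 CPM in WT. The groups did not overlap, with the highest library labelled cKO just below the lowest WT library. The log2 ratio was -0.45 (SE 0.15, unadjusted p 0.00592 in edgeR) with an adjusted p of 0.889, so the difference did not pass the test over all genes. Its adjusted p ranged from 0.13 to 1 over the alternatives, and the value from -0.52 to -0.37. Of the 22 non-neuronal markers 18 had a value above 0 in this comparison, with none called. With their score as a covariate the Flrt2 value was -0.46 with an adjusted p of 0.898.

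In CamK all 10 members had a value above 0, from 0.06 to 0.28 with a median of 0.17, where the median of all genes was near 0 and 49.5% of genes lay above it. The lowest adjusted p was 0.715 (Tenm3 and Adgrl3). This common direction rested on 1 library: without CamK cKO replicate 5, 6 of 10 values were above 0. That library had the highest CPM of the 7 CamK libraries for 8 of the 10 members, for example 123 CPM for Tenm3, 126 for Tenm2 and 120 for Tenm4, and also the highest Wfs1 (612 CPM). The part of CA1 cells in the members' values was not tested. Of the 22 non-neuronal markers 20 were above 0 in this comparison, and with their score as a covariate 9 of the 10 members were above 0, with Tenm3 at 0.19 (adjusted p 0.768).

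In Grik 4 values lay above 0 and 6 below, where 50.8% of all genes lay above 0, and in SST 7 above and 3 below, where 56% did. Of the 22 non-neuronal markers 18 were above 0 in SST, with none called. With their score as a covariate, 4 members were above 0 for SST and 3 for Grik. The counts of members also moved with single libraries. Leaving out 1 library gave 1 to 6 members above 0 for Grik, with 2 without cKO replicate 3 or 4 and 1 without WT replicate 3, and 3 to 8 for SST, with 4 without cKO replicate 4 or 5 and 3 without WT replicate 1. Without Flrt2 the Grik values ran from -0.18 to 0.09, and the SST values ran from -0.18 to 0.27, with Adgrl2 at the top (0.27, SE 0.15, adjusted p by edgeR 0.842). This Adgrl2 value ranged from 0.06 to 0.44 over the alternatives and was called in none. For Adgrl1, the gene measured most precisely, the 95% intervals were -0.11 to 0.22 for CamK, -0.17 to 0.13 for Grik and -0.04 to 0.27 for SST. For Tenm1, the least precise, they reached from -0.39 to 0.54, from -0.61 to 0.26 and from -0.58 to 0.27.

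The genotype difference was also compared between populations. No member was called for CamK against Grik (0.00531% of all genes), CamK against SST (0%) or Grik against SST (0.0106%) by edgeR, DESeq2 or limma-voom. At an unadjusted p under 0.05 in edgeR there was 1, 0 and 0, against 6.5, 7.85 and 3.86% of all genes. That 1 was again Flrt2, with 0.58 (SE 0.22, unadjusted p 0.0132 and adjusted p 0.754 in edgeR) for CamK against Grik, and without CamK cKO replicate 5 it was 0.28. For Tenm4 the same difference was 0.26 with an interval from -0.23 to 0.74.

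**Figure D5:**
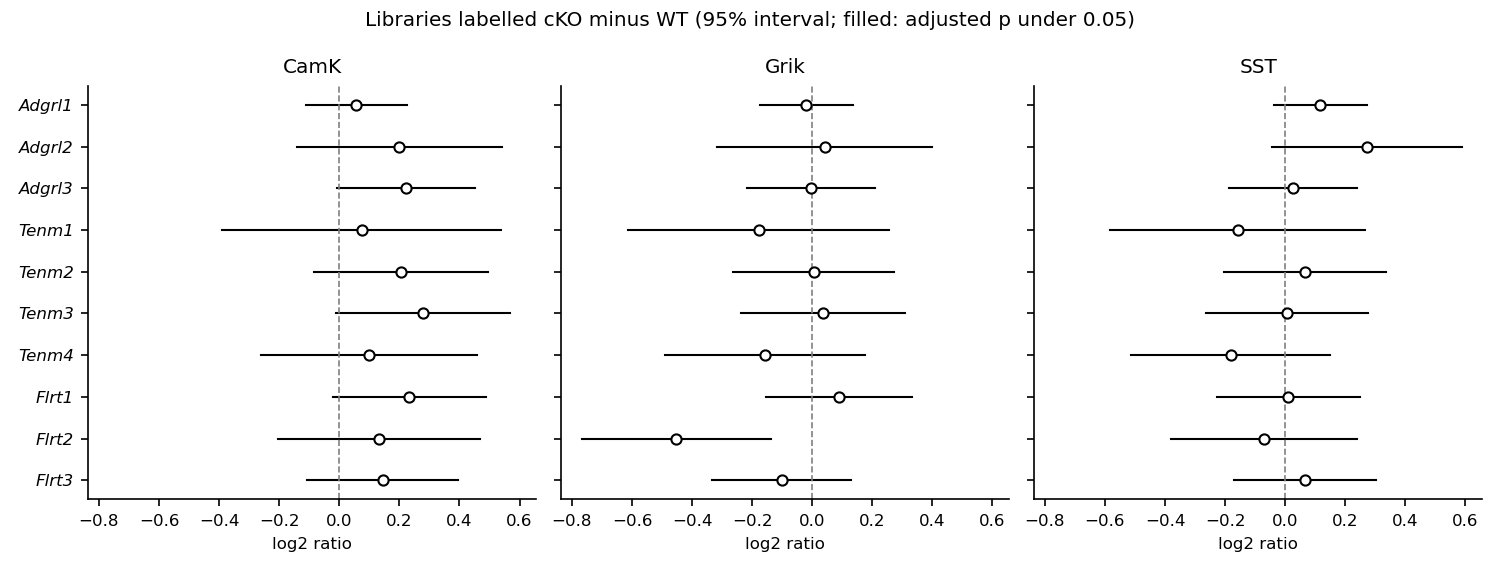
Log2 ratio (horizontal axis) of the 10 genes between libraries labelled cKO and WT, 1 panel per population; points are edgeR estimates, lines 95% intervals, and a filled point would have an adjusted p under 0.05. No point is filled, and Flrt2 in Grik, at -0.45, is the only one whose interval leaves out 0.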

How the data were processed

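Polyadenylated RNA of 23 libraries was sequenced. The authors deposited whole-number read counts per gene, not normalized. Per the submitters' processing notes, Trimmomatic, STAR and the GRCm38 build were used. Tool versions, strand setting and annotation release are not stated there. Summary rows of reads assigned to no gene, 12.4 to 18.4% of each library, were left out.

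The counts were tested in R 4.3.3 with edgeR 4.0.16 (quasi-likelihood, TMM scaling, filterByExpr, robust fit) over all 23 libraries in 6 groups, with 17 residual degrees of freedom, and p-values were adjusted by Benjamini-Hochberg over 18823 genes at a threshold of 0.05. CPM used the TMM library sizes, and RPKM the union of exons from GENCODE M21 or the longest transcript. Genes varied between libraries of a group with a common biological coefficient of 16.3%. The counts of members and genes called, the members above 0 and the main single member values were recomputed with relative log expression scaling, without the filter, with DESeq2 1.42.0, with limma-voom (limma 3.58.1) and sample weights, on only the groups compared, with a replicate block, with a non-neuronal score as covariate, and leaving out each library. Family shares were recomputed only with the other length. Partner genes between WT populations were recomputed only with the covariate, a choice made after seeing the data. Partner genes elsewhere, and the remaining single member values that involve libraries labelled cKO, were not recomputed.

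Groups came from the labels. Over 19 pairs of libraries with the same number, deviations correlated between -0.0813 and 0.1021, so the numbers were not used as pairs. All 10 members are named in each comparison. Of 23 partner genes, those called between all 3 pairs of WT populations are named, up to the 6 with the largest change, and the 2 genes with the highest Pearson's r were sought for each member. A partner gene and a gene of like profile are not reported here. The members and lists were chosen with earlier results of these data known. Figures were drawn with matplotlib 3.10.9.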

Additional observations from a re-analysis of the deposited data

How the results depend on the processing

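Of the WT contrasts, all calls with Grik except that of Tenm4 kept their direction and their side of the threshold in every alternative, as did those of Adgrl1 and Flrt3 for CamK against SST. For CamK against SST, the count of members called in WT was 3 with the non-neuronal covariate (37.9% of all genes) and 3 to 6 when leaving out 1 library (56.9 to 58.6% of all genes; 3 without CamK WT replicate 5 and 3 without SST WT replicate 2). In the libraries labelled cKO it was 5 with limma-voom (58% of all genes) and 3 to 5 when leaving out 1 library (49.5 to 56%; 5 without CamK cKO replicate 5). The cause was not tested. With the replicate block, 7, 6 and 8 members were called for CamK against Grik, CamK against SST and Grik against SST in WT (41.8, 59.2 and 53.5% of all genes); Tenm3 for CamK against SST was gained (-0.29, adjusted p 0.0326). Adgrl2 for CamK against SST was called with limma-voom (0.38, adjusted p 0.00578) and with the covariate (0.74, adjusted p 0.0415).

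Signs that changed were of values not called. For CamK against Grik, Adgrl1 was -0.0179 with limma-voom, -0.0323 with the replicate block and -0.0446 to 0.0951 when leaving out 1 library, Tenm1 was -0.0099 to 0.3637 when leaving out 1 library, and Tenm2 was 0.19 with the covariate and -0.1106 to 0.0189 when leaving out 1 library. For CamK against SST, Adgrl3 was -0.0047 with the replicate block and -0.0675 to 0.0893 when leaving out 1 library. Flrt1 was -0.0159 with the replicate block and -0.0165 to 0.0739 when leaving out 1 library, and with the covariate Tenm2 was 0.15 and Tenm3 0.10. Tenm4 for Grik against SST was -0.0351 to 0.2268 when leaving out 1 library. The cause was not tested.

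The number of members above 0 for cKO against WT in SST, 7, was 4 with the covariate. At 87612006 or more gene reads per library, the lowest count of any member was 171 reads.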
